A study of Mus musculus with 18 samples.

Results

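The Wnt ligands, their receptors and their secreted antagonists were followed in quadriceps muscle of 6 groups of male mice, with 3 arrays per group and 18 arrays in all. Members were chosen by symbol alone. They are the genes named Wnt, Fzd, Sfrp, Dkk, Wif1, Lrp5, Lrp6, Axin or Rspo whose row on the array carries 1 gene symbol, and the rule found 45 of the 20259 genes tested. The 45 are 19 Wnt ligands, 10 frizzled receptors, the coreceptors Lrp5 and Lrp6, 8 secreted antagonists (Sfrp1, Sfrp2, Sfrp4, Sfrp5, Dkk2, Dkk3, Dkk4 and Wif1), the R-spondins Rspo1 to Rspo4 and the scaffolds Axin1 and Axin2. The only row of Dkk1 carries other symbols as well, so it was not named, and the gene once called Sfrp3 is annotated as Frzb and stands among the further regulators.

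All mice were males on a C57BL/6 background and 10 weeks old. The groups were wt, wt injected with ACVR2B/Fc, Dysf-/-, Dysf-/- injected with ACVR2B/Fc, F66, and F66;Dysf-/-. Values of the groups that received ACVR2B/Fc are given as injected wt and injected Dysf-/-. Dysf-/- mice lack dysferlin, a protein needed for repair of the fibre membrane. F66 is 1 transgenic line that expresses follistatin (Fst), a secreted inhibitor of myostatin and activins, from a myosin light chain promoter active in skeletal muscle, and its transgene lies on the Y chromosome. ACVR2B/Fc is a soluble activin type IIB receptor fused to an antibody Fc domain, which traps the same ligands. It was given intraperitoneally in 4 weekly injections of 10 mg/kg (200 µg each) from 6 weeks of age. The labels give no treatment for the other 4 groups, and whether they received vehicle is not given in the sources used here.

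Wnt proteins are lipid-modified ligands that act over short distances. In the beta-catenin route a Wnt joins a frizzled receptor to Lrp5 or Lrp6, the destruction complex built on axin is inhibited, and beta-catenin reaches the nucleus to act with TCF and LEF factors. Other Wnts signal through frizzleds to planar polarity and calcium routes. Sfrp proteins and Wif1 bind Wnts outside the cell, Dkk2 and Dkk4 bind Lrp5 and Lrp6, and R-spondins keep frizzleds at the surface by removing the ligases Rnf43 and Znrf3. In skeletal muscle of the mouse the family is known for its part in the activation and expansion of satellite cells, the stem cells of the fibre, and in fibrosis.

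Of the 45 members, 28 were matched by gene number to a 300-base window of RefSeq promoters on build GRCm38.p6, running from 250 bases before a start site to 50 after it. The windows were searched on both strands for CTTTG, the core bound by TCF and LEF factors, for its longer forms CTTTGAA and CTTTGTA, which contain it, and for CAGAC, a short word bound by SMAD factors of the activin pathway. The windows of 4 members that changed are shown. Sfrp2 was higher in F66;Dysf-/- muscle, Wnt2 was higher in F66 muscle, Sfrp5 was lower in both, and Fzd7 was lower in F66;Dysf-/- muscle. Matches to CTTTG or CAGAC on either strand are in capitals, and each sequence is written 5′ to 3′ on the strand of its gene.
Sfrp2 (chr3:83766071-83766370, plus strand): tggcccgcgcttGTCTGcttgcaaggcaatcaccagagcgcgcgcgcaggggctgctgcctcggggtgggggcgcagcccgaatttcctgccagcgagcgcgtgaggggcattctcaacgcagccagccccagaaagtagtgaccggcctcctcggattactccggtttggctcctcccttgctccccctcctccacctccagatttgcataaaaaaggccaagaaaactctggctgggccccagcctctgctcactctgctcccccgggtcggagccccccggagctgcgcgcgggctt
Wnt2 (chr6:18030396-18030695, minus strand): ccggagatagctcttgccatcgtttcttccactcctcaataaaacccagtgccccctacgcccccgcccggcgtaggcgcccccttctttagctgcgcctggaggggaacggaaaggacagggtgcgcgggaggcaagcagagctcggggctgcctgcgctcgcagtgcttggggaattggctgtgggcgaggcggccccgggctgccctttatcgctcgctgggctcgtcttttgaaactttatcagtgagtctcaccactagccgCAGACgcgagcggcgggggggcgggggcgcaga
Sfrp5 (chr19:42202203-42202502, minus strand): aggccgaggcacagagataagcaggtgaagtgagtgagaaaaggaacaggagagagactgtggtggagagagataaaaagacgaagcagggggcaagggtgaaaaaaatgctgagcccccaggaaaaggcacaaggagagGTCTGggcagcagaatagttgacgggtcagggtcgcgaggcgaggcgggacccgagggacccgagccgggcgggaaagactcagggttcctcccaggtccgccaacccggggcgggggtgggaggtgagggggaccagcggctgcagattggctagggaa
Fzd7 (chr1:59481897-59482196, plus strand): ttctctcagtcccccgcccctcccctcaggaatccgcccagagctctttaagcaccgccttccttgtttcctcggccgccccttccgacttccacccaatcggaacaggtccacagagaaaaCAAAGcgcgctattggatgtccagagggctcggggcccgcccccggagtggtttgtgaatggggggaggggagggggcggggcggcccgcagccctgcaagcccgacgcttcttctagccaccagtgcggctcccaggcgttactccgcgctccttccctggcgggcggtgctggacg
CTTTG was present in 12 of the 28 member windows (42.9%), against 54% of all 27025 promoters of that length and 50.9% of the 15447 that belong to genes tested here. Neither longer form was found in the members' windows, 0 of 28, while 8.63% of all promoters held one. CAGAC was present in 14 of the 28 (50%), against 49.7% of all promoters. Each window printed here holds a match. Those of Wnt4, Wnt6, Fzd4 and Fzd9, members also called in F66;Dysf-/- against Dysf-/-, hold neither CTTTG nor CAGAC. Sfrp1 and Sfrp4 have no full window. The matches are a description of the members' windows. Their shares were not tested.

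Values are log2 RMA values as deposited, 1 row per gene, and differences are log2 differences between group means with the standard error (SE) of the limma fit over all arrays. A member was called when its limma p-value, adjusted by Benjamini-Hochberg over the 20259 genes, was under 0.05. The values carry no detection calls. As a guide, the level under which 95% of 973 olfactory and vomeronasal receptor genes lay on average was 6.10, and 26 of the 45 members had a mean at or above it. Levels of different genes are not compared, since probes differ in brightness.

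The Dysf row, read as a check of the labels, measured 6.76 to 7.10 in the 9 Dysf-/- arrays and 8.48 to 8.91 in the other 9. Fst measured 5.57 to 5.79 in wt, 5.92 to 6.33 in F66 and 6.12 to 6.38 in F66;Dysf-/-. Genes of adult muscle fibres had a mean of 12.36 in wt and 12.20 in F66;Dysf-/-, so the tissue was muscle by its own markers. The mean of 14 macrophage genes was 6.15 in wt and 6.76 in Dysf-/-, stood at 6.31 and 7.12 in their injected counterparts, and at 7.14 in F66 against 8.86 in F66;Dysf-/-. In F66;Dysf-/- against Dysf-/- all 14 were called higher, as were 11 of 13 fibroblast genes, while 5 of 9 endothelial genes, 4 of 5 adipocyte genes and 7 of 11 adult fibre genes were called lower, where 15.2% of all genes tested were called higher and 18.4% lower. In F66 against wt, 11 of 14 macrophage and 11 of 13 fibroblast genes were called higher and 6 of 9 endothelial and 3 of 5 adipocyte genes lower, where 8.11% of all genes tested were called higher and 5.5% lower. These shifts moved with the transgene groups in which most members changed, and their part in the members' values was not tested. In whole muscle, fewer cells of a type and less RNA per cell cannot be told apart.

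**Figure D1:**
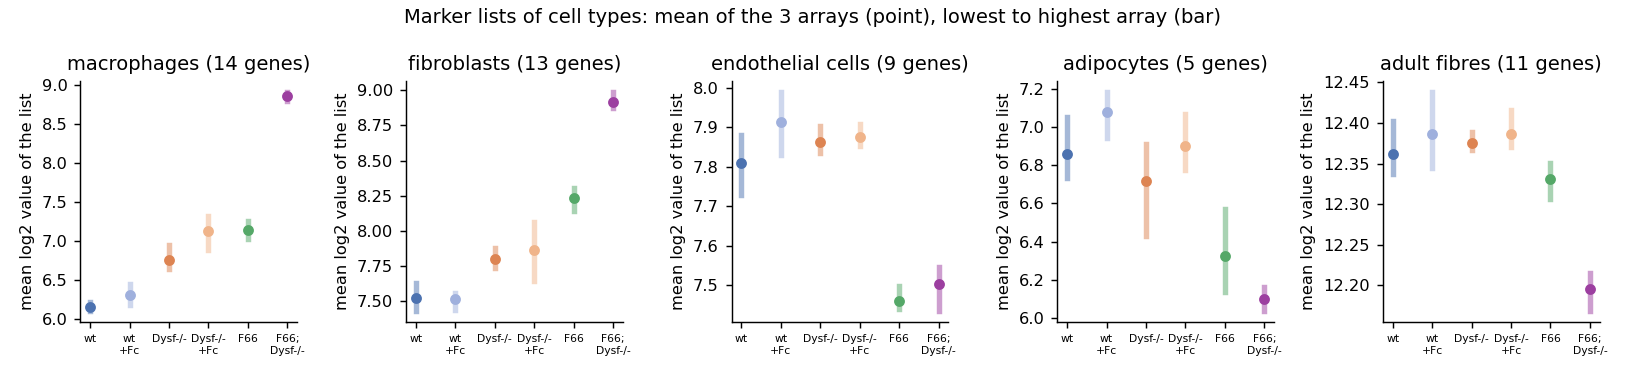
Mean log2 value (y axis) of 5 lists of cell type markers in the 6 groups (x axis, +Fc marks ACVR2B/Fc-injected mice), with a point for the mean of 3 arrays and a bar from the lowest to the highest array; y axes differ and do not start at 0. Macrophage genes stood at 8.86 in F66;Dysf-/- and at 7.14 or less in the other groups, and endothelial genes stood at 7.46 and 7.50 in the transgenic groups.

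Across the 6 groups 26 of the 45 members were called by the limma F test, 57.8% of them, against 49.2% of all genes tested. The largest spread of group means was that of Sfrp4, 1.54, and the smallest among the 26 was that of Lrp6, 0.25. F66;Dysf-/- muscle held the lowest group mean for 15 of the 26 and the highest for 6. The 6 that peaked there were Sfrp1, Sfrp2, Fzd1, Fzd3, Fzd8 and Lrp6. F66 muscle held the highest mean for Sfrp4, Wnt2 and Dkk2. The 19 members not called had spreads of 0.11 to 0.51, and F66;Dysf-/- held the lowest mean for 12 of them and the highest for 0. As deposited, all genes tested had a median difference of -0.09 in F66;Dysf-/- against Dysf-/- and of -0.08 against F66. The lowest and highest groups were not counted over all genes.

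In Dysf-/- against wt, in ACVR2B/Fc-injected against uninjected wt and in ACVR2B/Fc-injected against uninjected Dysf-/-, no member was called. In F66 against wt 6 members were called (13.3%, against 13.6% of all genes tested), in F66;Dysf-/- against Dysf-/- 17 (37.8%, against 33.6%), and in F66;Dysf-/- against F66 19 (42.2%, against 34.7%). At the study's own threshold, an unadjusted p under 0.01 in the methods' t-test with a more than 2-fold difference, 1 member passed in each of the 3, Sfrp4 in F66 against wt, Sfrp2 in F66;Dysf-/- against Dysf-/- and Sfrp4 in F66;Dysf-/- against F66. That is 2.22% of the members each time, against 0.656%, 2.36% and 2.08% of all genes tested in the same order. These comparisons share arrays, so their counts are not independent.

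In dysferlin-intact muscle Sfrp4 and Wnt2 rose with the transgene, and Dkk3, Sfrp5, Lrp5 and Fzd8 fell, so 2 members were called higher, where 8.11% of all genes were, and 4 lower, where 5.5% were. The calls of Sfrp4 and Sfrp5 held under every alternative that tested them and without each array. The filter at the guide level left out Sfrp4. The methods' t-test after adjustment did not call Dkk3, Wnt2 or Fzd8, and testing every row of the array in place of 1 row per gene ended the calls of Lrp5, Wnt2 and Fzd8. The arrays of F66 and wt did not overlap for 14 members, 11 of them lower, where 30.5% of all genes tested did not overlap.

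Sfrp4, a decoy for Wnts also known for its role in bone, showed the largest change of any member. Sfrp4 measured 5.22, 5.26 and 5.39 in wt, 5.46, 5.60 and 5.67 in injected wt, 5.33, 5.46 and 5.61 in Dysf-/-, and 5.47, 5.53 and 5.92 in injected Dysf-/-. It then measured 6.66, 6.88 and 6.97 in F66, and 5.72, 5.72 and 5.73 in F66;Dysf-/-. Every F66 array stood above every other array of the series, and the F66;Dysf-/- arrays lay close together just above the untreated groups. F66 exceeded wt by 1.54 (SE 0.11, adjusted p = 3.87e-07). F66;Dysf-/- minus F66 was -1.11 (SE 0.11, adjusted p = 1.6e-06). The mean of Sfrp4 over all arrays lay under the guide level of 6.10, and only the F66 arrays exceeded it, so no fold is given for Sfrp4. F66;Dysf-/- exceeded Dysf-/- by 0.26 (SE 0.11, adjusted p = 0.0902), which was not called, and the arrays of these groups did not overlap. Under each other scaling of the arrays that last difference was called, with the largest value 0.41 (adjusted p = 0.0107) when arrays were centred on the olfactory receptor genes.

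Wnt2, a ligand of the beta-catenin route known from the lung and placenta, also had its highest mean in F66. Wnt2 measured 5.40, 5.63 and 5.66 in wt, 5.46, 5.48 and 5.99 in injected wt, 5.48, 5.52 and 5.64 in Dysf-/-, and 5.52, 5.54 and 5.76 in injected Dysf-/-. It then measured 5.90, 5.99 and 6.36 in F66, and 5.39, 5.50 and 5.63 in F66;Dysf-/-. The F66 arrays were higher than those of wt, Dysf-/- and F66;Dysf-/-, but 1 array of ACVR2B/Fc-injected wt reached their range. F66 exceeded wt by 0.52 (SE 0.14, adjusted p = 0.0221). That call ended when the groups were compared alone (adjusted p = 0.0623), and under the methods' t-test and with all rows tested (up to 0.193). It ended without wt replicate 1 or F66 replicate 2 as well, with a difference of 0.38 and adjusted p = 0.111 in the latter case, and 0.44 and 0.0849 in the former. F66;Dysf-/- differed from F66 by -0.58 (SE 0.14, adjusted p = 0.0049), a call that the methods' t-test did not make (adjusted p = 0.066).

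Dkk2, an antagonist that binds Lrp5 and Lrp6, also stood highest in F66. Dkk2 measured 6.07, 6.07 and 6.15 in wt, 5.72, 5.99 and 5.99 in injected wt, 5.84, 6.02 and 6.04 in Dysf-/-, and 5.74, 5.76 and 5.90 in injected Dysf-/-. It then measured 6.19, 6.25 and 6.45 in F66, and 5.73, 5.83 and 5.90 in F66;Dysf-/-. Its 3 F66 arrays lay above all others of the series. F66 against wt gave 0.20 (SE 0.09, adjusted p = 0.164) and was not called, while F66;Dysf-/- against F66 gave -0.48 (SE 0.09, adjusted p = 0.000598) and was called. In F66;Dysf-/- against Dysf-/- the groups overlapped and the difference was -0.15 (SE 0.09, adjusted p = 0.208).

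Sfrp5 and Dkk3 were called lower in both F66 against wt and F66;Dysf-/- against Dysf-/-, and of the 45 members these 2 alone were called in both. Sfrp5 is a decoy for Wnts known as a secreted product of fat. Sfrp5 measured 6.87, 6.88 and 7.02 in wt, 6.52, 6.60 and 6.77 in injected wt, 6.62, 6.71 and 6.80 in Dysf-/-, and 6.36, 6.44 and 6.50 in injected Dysf-/-. It then measured 6.32, 6.36 and 6.37 in F66, and 5.96, 6.07 and 6.08 in F66;Dysf-/-. The means ran down from wt through Dysf-/-, injected wt, injected Dysf-/- and F66 to F66;Dysf-/-. The F66;Dysf-/- arrays lay below all others. Of the other neighbours in this order, Dysf-/- overlapped injected wt and injected Dysf-/- overlapped F66, while wt and Dysf-/- did not overlap, nor did injected wt and injected Dysf-/-. F66 against wt differed by -0.57 (SE 0.07, adjusted p = 5.64e-05) and F66;Dysf-/- against Dysf-/- by -0.67 (SE 0.07, adjusted p = 2.4e-06). F66;Dysf-/- also stood below F66, by -0.32 (SE 0.07, adjusted p = 0.00265). Centring arrays on the olfactory receptor genes ended this last call (adjusted p = 0.0748). Adipocyte genes had list means of 6.86 in wt, 6.33 in F66 and 6.10 in F66;Dysf-/-. Their list means were 7.08 in ACVR2B/Fc-injected wt and 6.90 in ACVR2B/Fc-injected Dysf-/-, against 6.72 in Dysf-/-. The part of fat cells in the values of Sfrp5 was not tested.

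Dkk3 is a divergent member of the Dickkopf family that does not act on Lrp5 and Lrp6 in the manner of the others. Dkk3 measured 6.09, 6.32 and 6.44 in wt, 5.71, 5.93 and 5.95 in injected wt, 5.96, 6.28 and 6.42 in Dysf-/-, and 5.64, 5.80 and 5.81 in injected Dysf-/-. It then measured 5.65, 5.71 and 5.74 in F66, and 5.57, 5.58 and 5.68 in F66;Dysf-/-. All arrays of the 4 groups with a blocked pathway lay at or below 5.95, and all arrays of wt and Dysf-/- lay above that. The mean of Dkk3 over all arrays, 5.90, lay under the guide level of 6.10. F66 against wt differed by -0.58 (SE 0.11, adjusted p = 0.00179), which the methods' t-test did not call after adjustment (adjusted p = 0.0763), and F66;Dysf-/- against Dysf-/- by -0.61 (SE 0.11, adjusted p = 0.000406). F66;Dysf-/- and F66 overlapped.

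After ACVR2B/Fc injection neither Dkk3 nor Sfrp5 was called. In wt, Dkk3 differed by -0.42 (SE 0.11, adjusted p = 0.283) and Sfrp5 by -0.29 (SE 0.07, adjusted p = 0.235), and every injected array was lower than every uninjected one for both. In Dysf-/-, Dkk3 differed by -0.47 (SE 0.11, adjusted p = 0.0814) and Sfrp5 by -0.28 (SE 0.07, adjusted p = 0.0982), again without overlap. The 95% intervals were -0.65 to -0.19 and -0.70 to -0.24 for Dkk3 and -0.44 to -0.14 and -0.43 to -0.12 for Sfrp5. Without ACVR2B/Fc-injected Dysf-/- replicate 1 the Dkk3 difference was -0.50 (SE 0.12, adjusted p = 0.0475) and was called.

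**Figure D2:**
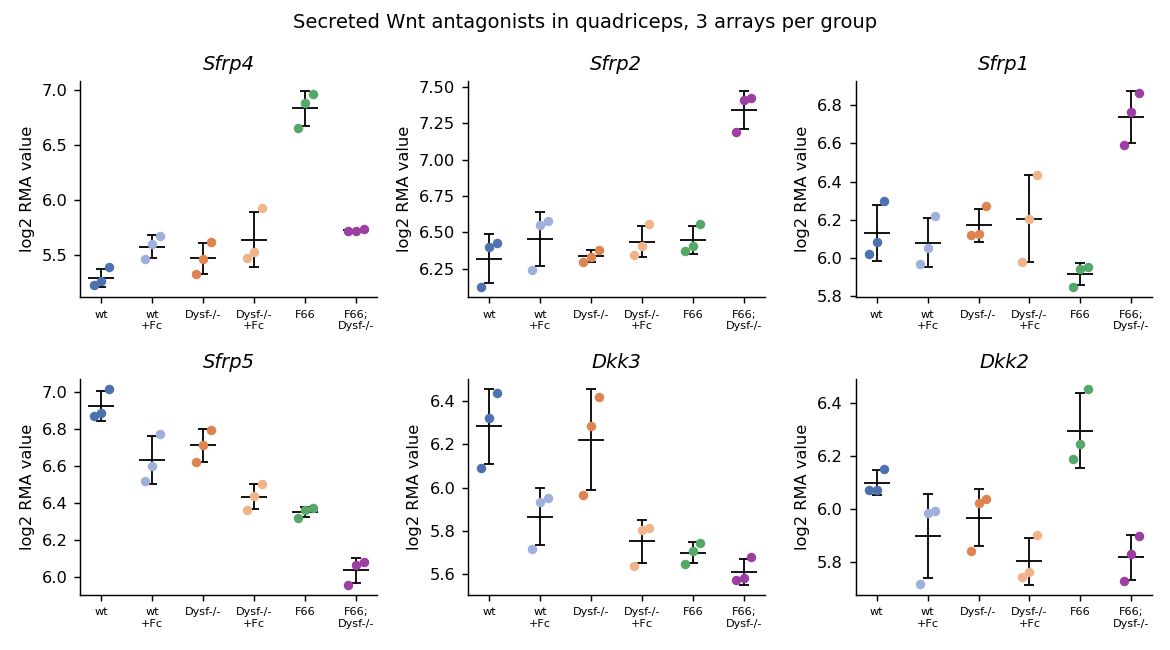
Log2 RMA values (y axes, which differ between panels and do not start at 0) of 6 secreted antagonists in the 6 groups (x axis, +Fc marks ACVR2B/Fc-injected mice), with a coloured point per array and black bars for the mean and SD of 3 arrays. Sfrp4 and Dkk2 stood highest in F66, Sfrp1 and Sfrp2 highest in F66;Dysf-/-, and Dkk3 stood at or below 5.95 in all arrays of the 4 groups with a blocked pathway.

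Lrp5, a coreceptor known for its control of bone mass, and Fzd8, a frizzled receptor, completed the calls in F66 against wt. Lrp5 measured 8.19, 8.20 and 8.21 in wt, 8.09, 8.15 and 8.17 in injected wt, 8.01, 8.05 and 8.06 in Dysf-/-, and 8.02, 8.11 and 8.19 in injected Dysf-/-. It then measured 7.90, 7.91 and 7.97 in F66, and 7.98, 8.00 and 8.07 in F66;Dysf-/-. All F66 arrays were below all wt arrays, by -0.27 (SE 0.05, adjusted p = 0.00171). Dysf-/- was lower than wt in all arrays too, by -0.16 (SE 0.05, adjusted p = 0.23), without a call. Fzd8 measured 7.50, 7.51 and 7.70 in wt, 7.46, 7.50 and 7.53 in injected wt, 7.41, 7.50 and 7.51 in Dysf-/-, and 7.43, 7.44 and 7.49 in injected Dysf-/-. It then measured 7.13, 7.23 and 7.47 in F66, and 7.52, 7.61 and 7.66 in F66;Dysf-/-. F66 against wt differed by -0.29 (SE 0.08, adjusted p = 0.0195) and F66;Dysf-/- against F66 by 0.32 (SE 0.08, adjusted p = 0.00441). Neither Fzd8 call held when its 2 rows were averaged (adjusted p = 0.0936 and 0.643). The second, dimmer row of Fzd8 gave -0.19 in F66 against wt and -0.20 in F66;Dysf-/- against F66, so the rows opposed each other in the latter. The methods' t-test and the test of all rows ended both calls as well (adjusted p up to 0.281 in F66 against wt). The F66 against wt call of Fzd8 also ended when the groups were compared alone, after centring on the median or the olfactory receptor genes, and without wt replicate 3, F66 replicate 1 or F66 replicate 2 (adjusted p up to 0.102).

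In muscle without dysferlin more calls were made for the transgene than in dysferlin-intact muscle, among the members and among all genes alike, and 13 of the 17 members called were lower on the deposited scale. The test of the difference between the backgrounds itself called 6 members, 5 of them more positive without dysferlin. Sfrp2, Sfrp1, Fzd1 and Fzd3 rose in F66;Dysf-/- against Dysf-/-, and Sfrp5, Fzd7, Dkk3, Wnt4, Wnt5a, Rspo3, Fzd6, Fzd4, Fzd9, Wnt6, Wnt9a, Wnt7b and Wnt5b fell. With 4 members higher and 13 lower, 15.2% of all genes tested were called higher and 18.4% lower. The arrays did not overlap for 25 members, 19 of them lower, where 50.9% of all genes tested did not overlap. The balance of directions depended on the scaling, with 4 higher and 13 lower as deposited, 5 and 8 after a further quantile normalization, 5 and 7 after centring arrays on their median, and 8 and 6 after centring on the olfactory receptor genes. The olfactory genes themselves had a median difference of -0.14 in this comparison, and all genes tested one of -0.09. No called member changed sign under these scalings. The 7 members called under every alternative that tested them and without each array in turn were Sfrp1, Sfrp2, Sfrp5, Dkk3, Wnt4, Wnt5a and Rspo3. The filter at the guide level left out Dkk3 and Rspo3, so it did not test them. The methods' t-test did not call Fzd4, Fzd7, Fzd9 or Wnt9a after adjustment, and testing all rows ended the calls of Fzd1, Fzd3, Fzd4, Fzd6, Fzd9, Wnt5b, Wnt6, Wnt7b and Wnt9a.

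**Figure D3:**
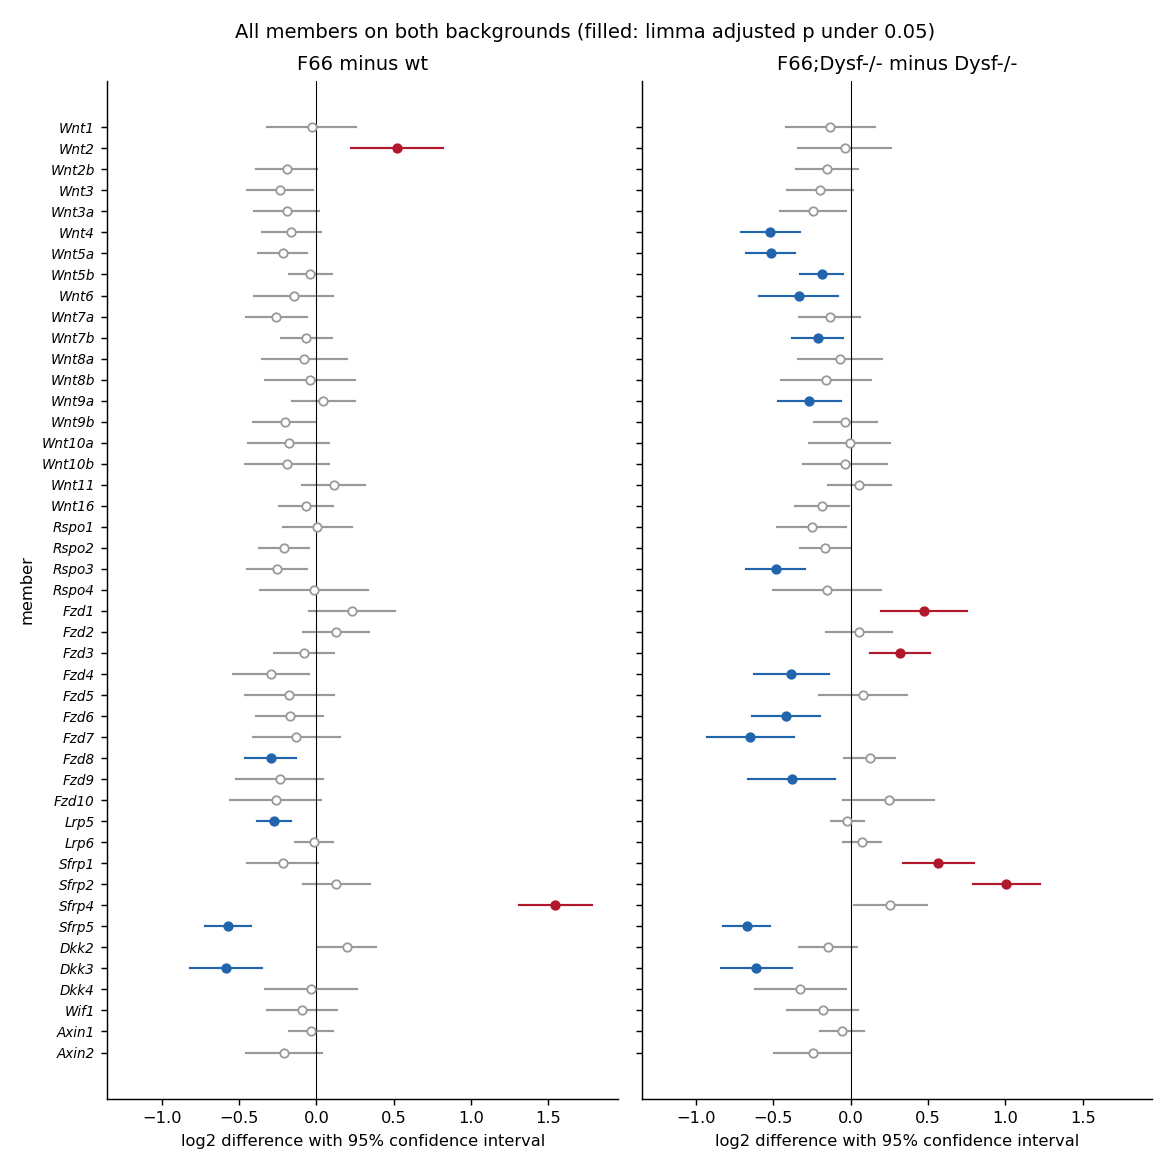
Log2 difference (x axis) with its 95% confidence interval for each of the 45 members (y axis) in F66 minus wt, at left, and F66;Dysf-/- minus Dysf-/-, at right; filled points are members called by limma, red higher and blue lower. Sfrp5 and Dkk3 were called lower on both sides, Sfrp4 was called at left only and Sfrp1 and Sfrp2 at right only.

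Sfrp1 and Sfrp2, decoys for Wnts that are expressed by fibroblasts and other mesenchymal cells, rose in F66;Dysf-/- muscle and were not called in F66 against wt. Sfrp2 measured 6.12, 6.40 and 6.43 in wt, 6.24, 6.55 and 6.58 in injected wt, 6.30, 6.33 and 6.38 in Dysf-/-, and 6.35, 6.40 and 6.55 in injected Dysf-/-. It then measured 6.37, 6.41 and 6.56 in F66, and 7.19, 7.41 and 7.42 in F66;Dysf-/-. The lowest F66;Dysf-/- array exceeded the highest array of the other groups by more than the spread within any group. F66;Dysf-/- exceeded Dysf-/- by 1.01 (SE 0.10, adjusted p = 1.65e-06), a 2.01-fold difference, and F66 by 0.89 (SE 0.10, adjusted p = 6.11e-06). F66 against wt gave 0.13 (SE 0.10, adjusted p = 0.44) with overlapping arrays. The window of Sfrp2 printed above held a CAGAC match and no CTTTG.

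Sfrp1 measured 6.02, 6.08 and 6.30 in wt, 5.97, 6.05 and 6.22 in injected wt, 6.12, 6.13 and 6.27 in Dysf-/-, and 5.98, 6.20 and 6.43 in injected Dysf-/-. It then measured 5.85, 5.94 and 5.95 in F66, and 6.59, 6.76 and 6.86 in F66;Dysf-/-. The F66 arrays were the lowest of the series and the F66;Dysf-/- arrays the highest. F66;Dysf-/- exceeded Dysf-/- by 0.57 (SE 0.11, adjusted p = 0.00079) and F66 by 0.82 (SE 0.11, adjusted p = 2.62e-05). Fibroblast genes had list means of 7.80 in Dysf-/-, 8.23 in F66 and 8.92 in F66;Dysf-/-, against 7.52 in wt. They stood higher in F66 as well, where Sfrp1 and Sfrp2 were not called. Genes of tendon cells, and those of pericytes and smooth muscle, had their lowest list means in F66 (8.40 and 7.84). Their highest were in F66;Dysf-/- (9.10 and 8.18), against 8.65 and 8.16 in wt. The part of these cells in the values of Sfrp1 and Sfrp2 was not tested.

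Among the ligands, 6 of 19 were called lower in F66;Dysf-/- against Dysf-/- and 0 higher. That is 31.6% of the ligands, where 33.6% of all genes tested were called, 15.2% higher and 18.4% lower. The count of lower calls fell to 2 under each other scaling. The 2 kept under all of them were Wnt4 and Wnt5a. Wnt4 is a ligand that muscle fibres of the mouse secrete and that has been tied to satellite cell quiescence. Wnt4 measured 7.44, 7.57 and 7.76 in wt, 7.46, 7.60 and 7.71 in injected wt, 7.47, 7.51 and 7.57 in Dysf-/-, and 7.32, 7.49 and 7.52 in injected Dysf-/-. It then measured 7.31, 7.43 and 7.54 in F66, and 6.94, 6.97 and 7.08 in F66;Dysf-/-. The F66;Dysf-/- arrays lay below all others, and the other 5 groups overlapped. The difference was -0.52 (SE 0.09, adjusted p = 0.000313) from Dysf-/- and -0.43 (SE 0.09, adjusted p = 0.00149) from F66.

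Wnt5a, the ligand best known for the planar polarity and calcium routes, measured 6.37, 6.41 and 6.48 in wt, 6.36, 6.48 and 6.49 in injected wt, 6.43, 6.49 and 6.50 in Dysf-/-, and 6.23, 6.40 and 6.50 in injected Dysf-/-. Wnt5a then measured 6.13, 6.18 and 6.31 in F66, and 5.85, 5.97 and 6.05 in F66;Dysf-/-. Both transgenic groups were lower than their controls without overlap between those pairs of groups. The difference from wt in F66 was -0.22 (SE 0.07, adjusted p = 0.0683) and was not called, and the difference from Dysf-/- in F66;Dysf-/- was -0.52 (SE 0.07, adjusted p = 5.89e-05). F66;Dysf-/- against F66 gave -0.25 (SE 0.07, adjusted p = 0.0162), a call that ended when arrays were centred on their median or on the olfactory genes, and without F66 replicate 3 or F66;Dysf-/- replicate 3 (adjusted p up to 0.0803).

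The other ligand calls were smaller and less stable. Wnt6 measured 5.42, 5.75 and 5.95 in wt, 5.60, 5.76 and 5.85 in injected wt, 5.51, 5.57 and 5.72 in Dysf-/-, and 5.72, 5.79 and 6.02 in injected Dysf-/-. It then measured 5.45, 5.51 and 5.72 in F66, and 5.21, 5.27 and 5.30 in F66;Dysf-/-, with a difference of -0.34 (SE 0.12, adjusted p = 0.0418) from Dysf-/-. Its lowest arrays of the series were those of F66;Dysf-/-.
Wnt9a measured 7.92, 8.06 and 8.21 in wt, 8.05, 8.12 and 8.19 in injected wt, 7.92, 8.16 and 8.19 in Dysf-/-, and 8.13, 8.16 and 8.16 in injected Dysf-/-. It then measured 8.02, 8.04 and 8.27 in F66, and 7.70, 7.77 and 7.98 in F66;Dysf-/-. The arrays of F66;Dysf-/- and Dysf-/- overlapped, and the difference was -0.27 (SE 0.10, adjusted p = 0.041). Wnt9a was also called against F66, at -0.29 (SE 0.10, adjusted p = 0.0281).
Wnt7b measured 6.26, 6.28 and 6.53 in wt, 6.31, 6.41 and 6.43 in injected wt, 6.29, 6.34 and 6.41 in Dysf-/-, and 6.35, 6.40 and 6.49 in injected Dysf-/-. It then measured 6.18, 6.28 and 6.42 in F66, and 6.07, 6.15 and 6.17 in F66;Dysf-/-, and the difference from Dysf-/- was -0.21 (SE 0.08, adjusted p = 0.0457). Its F66;Dysf-/- arrays did not overlap those of Dysf-/-.
Wnt5b measured 5.86, 6.00 and 6.09 in wt, 6.09, 6.12 and 6.21 in injected wt, 5.97, 6.08 and 6.10 in Dysf-/-, and 5.97, 6.13 and 6.15 in injected Dysf-/-. It then measured 5.91, 5.93 and 5.98 in F66, and 5.85, 5.87 and 5.88 in F66;Dysf-/-, and the difference from Dysf-/- was -0.19 (SE 0.07, adjusted p = 0.0386). None of these 4 calls against Dysf-/- held under any other scaling, nor did that of Wnt9a with the groups compared alone or that of Wnt7b with the replicate number as a block. Leaving out single arrays ended them too. For Wnt5b these were Dysf-/- replicates 1 and 2 and any F66;Dysf-/- array (adjusted p up to 0.119), for Wnt6 Dysf-/- replicates 2 and 3 and any F66;Dysf-/- array (up to 0.142), for Wnt7b any array of either group (up to 0.148), and for Wnt9a Dysf-/- replicates 2 and 3 and F66;Dysf-/- replicates 1 and 2 (up to 0.148). The Wnt9a call against F66 ended after centring on the median or the olfactory genes, with the groups compared alone, under the methods' t-test and with all rows tested (adjusted p up to 0.251), and without F66 replicate 2 or F66;Dysf-/- replicates 1 or 2 (up to 0.133).

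Rspo3, an R-spondin known for its part in the growth of blood vessels, was lower in F66;Dysf-/-. Rspo3 measured 5.62, 5.63 and 5.84 in wt, 5.44, 5.67 and 5.72 in injected wt, 5.61, 5.65 and 5.74 in Dysf-/-, and 5.52, 5.53 and 5.55 in injected Dysf-/-. It then measured 5.32, 5.39 and 5.62 in F66, and 5.08, 5.17 and 5.28 in F66;Dysf-/-. All F66;Dysf-/- arrays lay below all others, and those of F66 lay below those of wt. The difference was -0.48 (SE 0.09, adjusted p = 0.000609) from Dysf-/- and -0.26 (SE 0.09, adjusted p = 0.0338) from F66. The latter call ended under each other scaling, with the groups compared alone and without F66 replicate 3, F66;Dysf-/- replicate 2 or F66;Dysf-/- replicate 3 (adjusted p up to 0.167). All values of Rspo3 lay under the guide level of 6.10, as did those of Fzd3, Wnt3, Wnt6 and Wnt16. The means over all arrays of Dkk2, Dkk3, Dkk4, Sfrp4, Wnt2, Wnt5b, Wnt7a and Rspo2 lay under it too.

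Frizzled receptors moved in both directions, with Fzd1 and Fzd3 higher and Fzd4, Fzd6, Fzd7 and Fzd9 lower in F66;Dysf-/- against Dysf-/- as deposited, and 4 higher and 1 lower after centring on the olfactory receptor genes. Fzd7, the receptor through which Wnt7a acts on satellite cells of the mouse, measured 8.64, 8.68 and 8.95 in wt, 8.49, 8.69 and 8.85 in injected wt, 8.60, 8.79 and 9.07 in Dysf-/-, and 8.66, 8.71 and 8.82 in injected Dysf-/-. Fzd7 then measured 8.46, 8.60 and 8.82 in F66, and 7.99, 8.21 and 8.30 in F66;Dysf-/-. The F66;Dysf-/- arrays lay below all others. The difference was -0.65 (SE 0.13, adjusted p = 0.00132) from Dysf-/- and -0.46 (SE 0.13, adjusted p = 0.0142) from F66, and the second ended when arrays were centred on the olfactory genes and without F66 replicate 2 or F66;Dysf-/- replicate 3 (adjusted p up to 0.0721). The Fzd7 window printed above holds 1 CTTTG match. In F66;Dysf-/- against Dysf-/-, 6 of 9 genes of satellite cells and myoblasts were called higher and 2 lower, and 7 of 11 adult fibre genes were called lower. Over all genes tested 15.2% were called higher and 18.4% lower. The part of these cells in the change of Fzd7 was not tested.

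Fzd4, a receptor with a known role in endothelial cells, had its highest mean in injected wt. Fzd4 measured 10.56, 10.71 and 10.73 in wt, 10.71, 10.95 and 11.04 in injected wt, 10.30, 10.31 and 10.69 in Dysf-/-, and 10.18, 10.34 and 10.55 in injected Dysf-/-. It then measured 10.32, 10.34 and 10.45 in F66, and 9.98, 10.03 and 10.14 in F66;Dysf-/-. F66;Dysf-/- arrays were the lowest of the series. The difference was -0.38 (SE 0.11, adjusted p = 0.017) from Dysf-/- and -0.32 (SE 0.11, adjusted p = 0.04) from F66, and both ended after centring on the median or the olfactory genes. The former also ended without Dysf-/- replicate 2 or F66;Dysf-/- replicate 1 (adjusted p up to 0.0932), and the latter without any F66 array or F66;Dysf-/- replicates 1 or 3 (up to 0.123). Endothelial genes had list means of 7.81 in wt, 7.86 in Dysf-/-, 7.46 in F66 and 7.50 in F66;Dysf-/-. The part of endothelial cells in the values of Fzd4 was not tested.

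Fzd6, which acts in planar polarity of hair, measured 6.77, 6.91 and 7.00 in wt, 6.76, 7.06 and 7.08 in injected wt, 6.70, 6.86 and 6.92 in Dysf-/-, and 6.76, 6.76 and 7.01 in injected Dysf-/-. Fzd6 then measured 6.55, 6.80 and 6.82 in F66, and 6.36, 6.42 and 6.44 in F66;Dysf-/-. The F66;Dysf-/- arrays lay below all others. The difference was -0.42 (SE 0.10, adjusted p = 0.00541) from Dysf-/- and -0.31 (SE 0.10, adjusted p = 0.0281) from F66. Centring on the olfactory genes ended both. The call against F66 also ended with median centring and without F66 replicates 1 or 2 or any F66;Dysf-/- array (adjusted p up to 0.0977).
Fzd9 measured 7.42, 7.72 and 7.75 in wt, 7.31, 7.66 and 7.88 in injected wt, 7.66, 7.67 and 7.95 in Dysf-/-, and 7.60, 7.80 and 7.86 in injected Dysf-/-. It then measured 7.28, 7.44 and 7.46 in F66, and 7.23, 7.43 and 7.47 in F66;Dysf-/-, so that the arrays of the 2 transgenic groups overlapped each other. The difference from Dysf-/- was -0.38 (SE 0.13, adjusted p = 0.0375), and each other scaling ended the call, as did leaving out Dysf-/- replicate 3 or any F66;Dysf-/- array (adjusted p up to 0.151).

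Fzd1, a receptor of the beta-catenin route, was the highest in F66;Dysf-/-. Fzd1 measured 6.65, 6.79 and 6.95 in wt, 6.53, 6.86 and 7.23 in injected wt, 7.01, 7.02 and 7.06 in Dysf-/-, and 6.92, 6.98 and 7.09 in injected Dysf-/-. It then measured 6.92, 6.96 and 7.19 in F66, and 7.47, 7.48 and 7.54 in F66;Dysf-/-. The difference was 0.47 (SE 0.13, adjusted p = 0.0111) from Dysf-/- and 0.48 (SE 0.13, adjusted p = 0.0102) from F66, and all F66;Dysf-/- arrays lay above all others.
Fzd3, known from axon guidance, measured 4.73, 4.74 and 4.80 in wt, 4.57, 4.71 and 4.76 in injected wt, 4.63, 4.72 and 4.83 in Dysf-/-, and 4.78, 4.83 and 4.85 in injected Dysf-/-. Fzd3 then measured 4.50, 4.60 and 4.92 in F66, and 4.96, 5.05 and 5.12 in F66;Dysf-/-. Its F66;Dysf-/- arrays lay above all others, by 0.32 (SE 0.09, adjusted p = 0.013) from Dysf-/- and 0.37 (SE 0.09, adjusted p = 0.00528) from F66. Leaving out Dysf-/- replicate 1 or F66;Dysf-/- replicate 1 ended the call against Dysf-/- (adjusted p up to 0.0582).

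**Figure D4:**
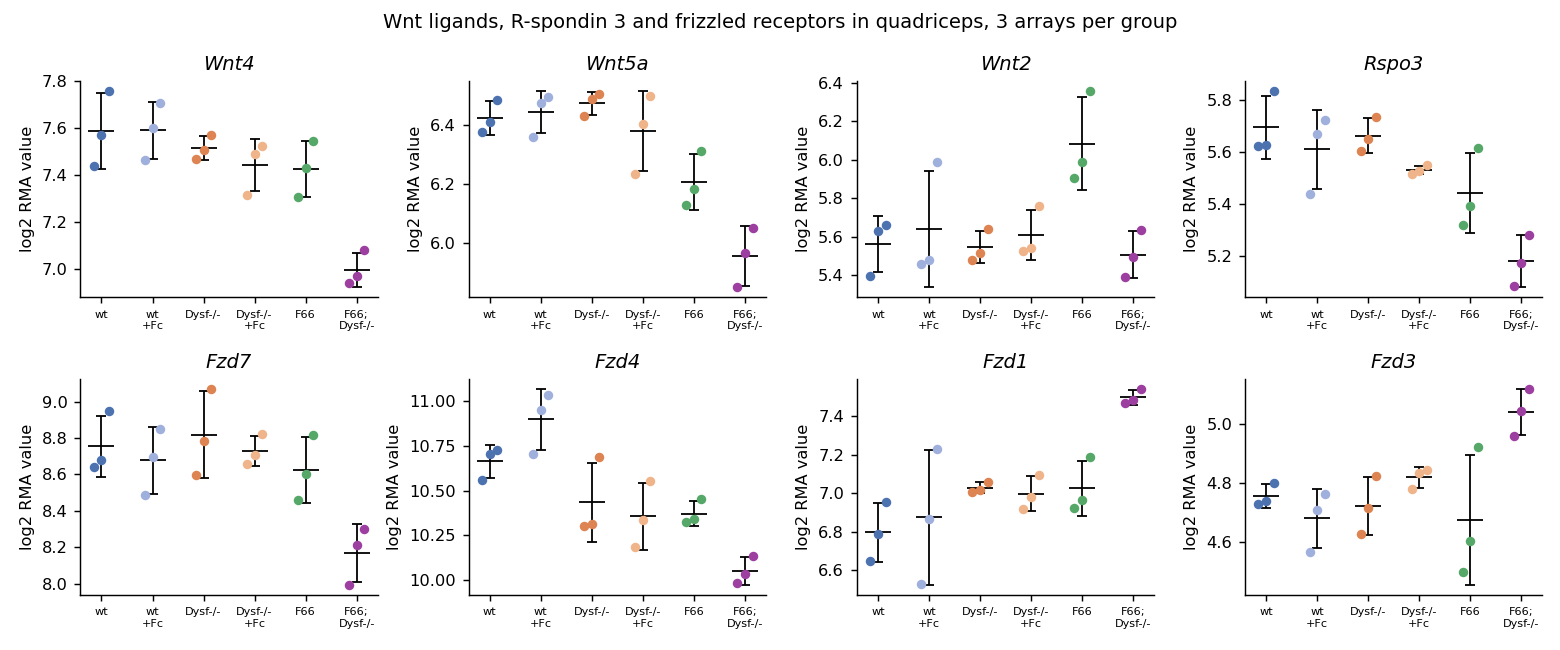
Log2 RMA values (y axes, which differ between panels and do not start at 0) of 3 ligands, Rspo3 and 4 frizzled receptors in the 6 groups (x axis, +Fc marks ACVR2B/Fc-injected mice), with a coloured point per array and black bars for the mean and SD of 3 arrays. Wnt4, Wnt5a, Rspo3, Fzd7 and Fzd4 stood lowest and Fzd1 and Fzd3 highest in F66;Dysf-/-, and Wnt2 stood highest in F66.

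Loss of dysferlin in transgenic muscle, F66;Dysf-/- against F66, gave calls for 19 of the 45 members. Of these 6 were higher (14.5% of all genes were) and 13 lower (20.3%) as deposited, 6 and 11 after a further quantile normalization, 6 and 7 after median centring and 7 and 4 after centring on the olfactory genes. The arrays did not overlap for 26 members, 19 of them lower, against 51% of all genes tested. Of the 17 members called against Dysf-/-, 12 were called here too, and both comparisons share the F66;Dysf-/- arrays. The methods' t-test did not call Dkk4, Fzd3, Fzd6, Fzd7, Fzd8, Rspo3, Wnt2, Wnt5a, Wnt9a or Wnt16 after adjustment, and testing all rows ended the calls of Dkk4, Fzd1, Fzd4, Fzd6, Fzd7, Fzd8, Lrp6, Rspo3, Wnt5a, Wnt9a and Wnt16. The 5 calls kept under every alternative that tested them and without each array in turn were Sfrp1, Sfrp2, Sfrp4, Dkk2 and Wnt4. The filter at the guide level left out Sfrp4 and Dkk2.

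Members called against F66 alone included Lrp6, Dkk4 and Wnt16. Lrp6, the second coreceptor, measured 7.61, 7.67 and 7.68 in wt, 7.64, 7.64 and 7.64 in injected wt, 7.71, 7.79 and 7.90 in Dysf-/-, and 7.56, 7.66 and 7.66 in injected Dysf-/-. Lrp6 then measured 7.56, 7.65 and 7.70 in F66, and 7.83, 7.84 and 7.94 in F66;Dysf-/-, and F66;Dysf-/- exceeded F66 by 0.23 (SE 0.06, adjusted p = 0.0052) without overlap.
Dkk4, which binds the coreceptors, measured 5.89, 6.00 and 6.19 in wt, 5.51, 5.71 and 6.08 in injected wt, 5.78, 5.83 and 5.92 in Dysf-/-, and 5.72, 5.82 and 5.99 in injected Dysf-/-. Dkk4 then measured 5.94, 5.98 and 6.05 in F66, and 5.23, 5.56 and 5.76 in F66;Dysf-/-. The difference was -0.48 (SE 0.14, adjusted p = 0.0142), and it was not called after centring on the olfactory genes or without F66;Dysf-/- replicate 2 (adjusted p = 0.0784).
Wnt16, a ligand known from bone, measured 5.51, 5.53 and 5.61 in wt, 5.56, 5.57 and 5.59 in injected wt, 5.22, 5.48 and 5.59 in Dysf-/-, and 5.49, 5.61 and 5.67 in injected Dysf-/-. Wnt16 then measured 5.43, 5.48 and 5.54 in F66, and 5.14, 5.28 and 5.32 in F66;Dysf-/-, and the difference of -0.24 (SE 0.08, adjusted p = 0.0356) was lost under each other scaling and without F66 replicates 2 or 3 or F66;Dysf-/- replicates 1 or 2 (adjusted p up to 0.152).

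**Figure D5:**
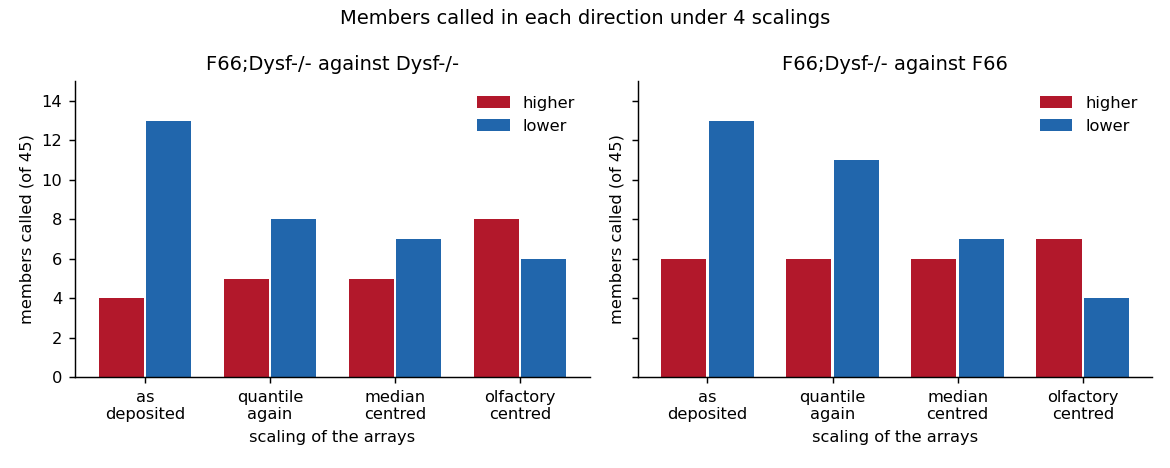
Number of the 45 members called higher (red) and lower (blue) by limma (y axis) under 4 scalings of the arrays (x axis), for F66;Dysf-/- against Dysf-/- at left and against F66 at right. Lower calls fell from 13 as deposited to 6 at left and 4 at right after centring on the olfactory receptor genes, and higher calls went from 4 to 8 and from 6 to 7.

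The effect of the transgene differed between backgrounds for 6 members, 13.3% of the 45, against 16.5% of all genes tested. It was more positive without dysferlin for Sfrp2, Sfrp1, Fzd8, Fzd3 and Lrp5 (5 members, where 8.54% of all genes were called in this direction) and more negative for Sfrp4 (1 member, 7.93%). For Sfrp4 the difference of effects was -1.29 (SE 0.16, adjusted p = 4.81e-05). It was 0.88 (SE 0.14, adjusted p = 0.000635) for Sfrp2 and 0.78 (SE 0.15, adjusted p = 0.00234) for Sfrp1. These 3 calls held under every alternative that tested them and without each array, and the filter at the guide level left out Sfrp4. For Fzd8 it was 0.42 (SE 0.11, adjusted p = 0.0161), for Fzd3 0.40 (SE 0.13, adjusted p = 0.0437) and for Lrp5 0.25 (SE 0.07, adjusted p = 0.024). Testing all rows ended each of these other 3, and averaging the 2 rows of Fzd8 ended its call too. The Fzd3 call was kept under 2 of 8 alternatives. It ended with the groups compared alone, the replicate block, a further quantile normalization, median centring and trended robust eBayes (adjusted p up to 0.0775). Leaving out any wt array, Dysf-/- replicates 1 or 3, F66 replicates 1 or 3 or F66;Dysf-/- replicates 1 or 3 ended the Fzd3 call as well (adjusted p up to 0.112), and leaving out Dysf-/- replicate 2, F66 replicate 1, F66 replicate 2 or F66;Dysf-/- replicate 3 ended that of Lrp5 (up to 0.0638).

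The injected receptor, and the loss of dysferlin in mice without the transgene, left the members without a call. In Dysf-/- against wt 0 of 45 were called by limma, against 0.489% of all genes tested, and 0 by the methods' t-test after adjustment. At an unadjusted limma p under 0.05 1 member was higher and 4 were lower, where 843 of the 20259 genes tested were higher and 1151 lower. The arrays did not overlap for 8 members, against 13.5% of all genes. The largest difference was that of Fzd10, -0.49 (SE 0.14, adjusted p = 0.168). In ACVR2B/Fc-injected against uninjected wt 0 were called, against 0.0296% of all genes, and 0 by the methods' t-test after adjustment. Before adjustment, 5 members had a limma p under 0.05, of which 2 were higher. Of the 20259 genes tested 814 were higher and 728 lower at that threshold. The arrays did not overlap for 7 members, against 11.8% of all genes.

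In ACVR2B/Fc-injected against uninjected Dysf-/- 0 were called, against 0.0247% of all genes, and 0 by the methods' t-test after adjustment. Before adjustment, 8 members had a limma p under 0.05, of which 5 were higher. Of the 20259 genes tested 2263 were higher and 1542 lower at that threshold. The arrays did not overlap for 10 members, against 22.5% of all genes. Fzd10, a frizzled receptor, had the largest difference. Fzd10 measured 6.38, 6.48 and 6.76 in wt, 6.37, 6.46 and 6.54 in injected wt, 5.88, 6.06 and 6.21 in Dysf-/-, and 6.46, 6.73 and 6.81 in injected Dysf-/-. It then measured 6.06, 6.18 and 6.60 in F66, and 6.20, 6.25 and 6.43 in F66;Dysf-/-. Every Dysf-/- array lay below every wt array, and 2 of the 3 injected Dysf-/- arrays lay within the range of wt and 1 above it. Injected minus uninjected Dysf-/- was 0.62 (SE 0.14, adjusted p = 0.081), with a 95% interval of 0.32 to 0.91, and was not called. It was called when genes below the guide level were left out (adjusted p = 0.0436) and without ACVR2B/Fc-injected Dysf-/- replicate 1 (adjusted p = 0.0334). The difference of the ACVR2B/Fc effect between backgrounds was called for 0 members by limma, against 0.00494% of all genes. At an unadjusted limma p under 0.05 there was 1 member, again Fzd10, where 910 of the 20259 genes tested were higher and 660 lower. No t-test was run on that difference.

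Fzd10 and 4 further members were called across the 6 groups and in no comparison of 2 groups. Testing all rows ended all 5 of these F test calls. That of Fzd10 also ended without Dysf-/- replicate 2 (adjusted p = 0.0525), those of Wnt3 and Wnt3a under each other scaling, and that of Rspo2 when arrays were centred on the median or the olfactory genes or its rows were averaged (up to 0.25). The Wnt3 call ended under the methods' ANOVA too, and without injected Dysf-/- replicate 3 or any F66;Dysf-/- array (up to 0.0825), and the Wnt3a call without F66;Dysf-/- replicate 1 (0.0844). Wnt7a, which expands satellite cells of the mouse through Fzd7, measured 5.87, 6.02 and 6.05 in wt, 5.84, 6.10 and 6.25 in injected wt, 5.79, 5.87 and 6.02 in Dysf-/-, and 6.03, 6.19 and 6.23 in injected Dysf-/-. Wnt7a then measured 5.70, 5.73 and 5.73 in F66, and 5.67, 5.76 and 5.84 in F66;Dysf-/-. The transgenic groups held its lowest group means and the injected groups its highest, with F66 against wt at -0.26 (SE 0.09, adjusted p = 0.0836).
Wnt3a, a ligand of the beta-catenin route, measured 6.54, 6.55 and 6.70 in wt, 6.46, 6.52 and 6.71 in injected wt, 6.39, 6.40 and 6.50 in Dysf-/-, and 6.42, 6.49 and 6.66 in injected Dysf-/-. Wnt3a then measured 6.35, 6.37 and 6.49 in F66, and 5.95, 6.24 and 6.36 in F66;Dysf-/-, with F66;Dysf-/- against Dysf-/- at -0.24 (SE 0.10, adjusted p = 0.0692).
Wnt3 measured 5.62, 5.70 and 5.75 in wt, 5.59, 5.61 and 5.73 in injected wt, 5.55, 5.56 and 5.70 in Dysf-/-, and 5.54, 5.81 and 6.02 in injected Dysf-/-. It then measured 5.30, 5.49 and 5.58 in F66, and 5.32, 5.44 and 5.45 in F66;Dysf-/-, and its group means spread over 0.39. Rspo2 measured 5.79, 6.05 and 6.13 in wt, 6.01, 6.04 and 6.16 in injected wt, 5.81, 5.91 and 6.03 in Dysf-/-, and 6.06, 6.07 and 6.11 in injected Dysf-/-. It then measured 5.72, 5.80 and 5.81 in F66, and 5.74, 5.75 and 5.76 in F66;Dysf-/-, and both transgenic groups lay at or below 5.81. F66 minus wt was -0.21 (SE 0.08, adjusted p = 0.0861) in this row and 0.41 in the second, dimmer row of Rspo2, so the rows opposed each other.

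The 15 members called nowhere were Axin1, Axin2, Fzd2, Fzd5, Rspo1, Rspo4, Wif1, Wnt1, Wnt2b, Wnt8a, Wnt8b, Wnt9b, Wnt10a, Wnt10b and Wnt11. Axin2, a direct target by which beta-catenin restrains itself, had an adjusted p of 0.0895 in the F test. Its group means were 7.21 in wt, 7.18 in Dysf-/-, 6.99 in F66 and 6.94 in F66;Dysf-/-, with a 95% interval of -0.46 to 0.04 for F66 minus wt and of -0.49 to -0.00 for F66;Dysf-/- minus Dysf-/-. Axin1 had the narrowest spread of the 45 members, 0.11. For Wnt11 the 3 rows of the array gave differences in F66;Dysf-/- against Dysf-/- of 0.06, 0.19 and -0.11, so the rows did not share a direction.

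The rest of the pathway was read from lists of genes outside the 45, against 13.6% of all genes tested called in F66 against wt and 33.6% in F66;Dysf-/- against Dysf-/-. Of 27 regulators of Wnt secretion and reception, 4 were called higher and 6 lower in F66 against wt, and 6 higher and 8 lower in F66;Dysf-/- against Dysf-/- (37% and 51.9% of the list), with a median difference of -0.11 in the latter against -0.09 over all genes. Adgra2, a coreceptor for Wnt7 ligands, rose in F66;Dysf-/- by 0.64 (SE 0.06, adjusted p = 1.42e-06), and Gpc4, a glypican, rose on both backgrounds, by 0.39 (SE 0.05, adjusted p = 6.95e-05) in F66 and 0.46 (SE 0.05, adjusted p = 2.68e-06) in F66;Dysf-/-. Lgr4, a receptor of R-spondins, fell in F66;Dysf-/- against Dysf-/-, with a difference of -0.64 (SE 0.08, adjusted p = 8.31e-06). Reck, which works with Adgra2, rose in F66 by 0.80 (SE 0.09, adjusted p = 1.48e-05) and gave 0.16 (SE 0.09, adjusted p = 0.151) in F66;Dysf-/- against Dysf-/-.

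Of 32 genes of the beta-catenin route inside the cell, 30 were measured. In F66 against wt 2 were called higher and 0 lower, and in F66;Dysf-/- against Dysf-/- 6 higher and 5 lower, which is 6.67% and 36.7% of those measured. Tle3, a corepressor of TCF factors, rose on both backgrounds, by 0.35 (SE 0.07, adjusted p = 0.00438) and 0.57 (SE 0.07, adjusted p = 1.77e-05), Pygo1, a partner of beta-catenin, fell in F66;Dysf-/- with -0.54 (SE 0.07, adjusted p = 1.28e-05), and Csnk1g3, a casein kinase, rose there by 0.40 (SE 0.08, adjusted p = 0.00143). Tle1, another corepressor, was called in neither, with 0.18 (SE 0.08, adjusted p = 0.17) and 0.00 (SE 0.08, adjusted p = 0.991). Of 25 genes of the planar polarity and calcium routes 23 were measured, with 4 higher and 2 lower in F66 against wt and 3 higher and 5 lower in F66;Dysf-/- against Dysf-/- (26.1% and 34.8%). Celsr2, a cadherin of planar polarity, fell on both backgrounds, with -0.56 (SE 0.06, adjusted p = 2.23e-05) and -0.65 (SE 0.06, adjusted p = 1.08e-06). Camk2d, a calcium-dependent kinase, rose on both, by 0.48 (SE 0.07, adjusted p = 0.000334) and 0.30 (SE 0.07, adjusted p = 0.00494), and Camk2a, its relative, fell on both, with -0.21 (SE 0.06, adjusted p = 0.0402) and -0.34 (SE 0.06, adjusted p = 0.000775). Prickle3, which acts in planar polarity, rose in F66 by 0.36 (SE 0.08, adjusted p = 0.00647) and gave -0.11 (SE 0.08, adjusted p = 0.28) in F66;Dysf-/- against Dysf-/-.

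Of 20 genes known as transcriptional targets of beta-catenin, 18 were measured. Lef1 and Tcf7 also stand on the list of the beta-catenin route, and Notum, Lgr5, Znrf3, Rnf43 and Apcdd1 on that of secretion and reception, so these lists overlap. In F66 against wt 2 were called higher and 3 lower, and in F66;Dysf-/- against Dysf-/- 5 higher and 3 lower (27.8% and 44.4%), with a median difference of -0.11 against -0.09 over all genes tested. Cd44, an adhesion receptor that is also abundant on macrophages and other immune cells, rose by 0.72 (SE 0.09, adjusted p = 4.65e-05) in F66 and 1.62 (SE 0.09, adjusted p = 1.99e-09) in F66;Dysf-/-. Ccn4, a matrix protein, rose in F66;Dysf-/- by 0.80 (SE 0.07, adjusted p = 5.56e-07). Ccnd1, cyclin D1, rose there by 0.53 (SE 0.11, adjusted p = 0.00135), and Fst, which the transgene itself encodes, stands on the list and was called higher on both backgrounds. The macrophage genes rose in the same comparisons, and their part in the change of Cd44 and the other targets was not tested. The 3 targets called lower in F66;Dysf-/- against Dysf-/- are not among those named here.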

How the data were processed

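Quadriceps RNA of 6 groups of mice, 3 biological replicates each, was measured on 18 Affymetrix arrays of the type Mouse Exon 1.0 ST, and groups were taken from the sample labels. The authors deposited log2 values for 115830 rows, made by RMA in Partek against build mm9 according to the submitters' notes, with no versions stated. RMA quantile normalizes the arrays, which removes part of any change shared by most genes, and it compresses differences of dim genes. No detection calls, scan dates or pooled columns were used. Symbols came from the platform annotation. Where several rows carried a symbol, the one brightest on average across the 18 arrays stood for the gene.

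One linear model with empirical Bayes moderation (limma 3.58.1 under R 4.3.3) was fitted over all 18 arrays and 20259 genes, with 12 residual and 3.2 prior degrees of freedom. p-values were adjusted by Benjamini-Hochberg within each comparison. With 3 arrays a group the number of arrays limits precision. The study's general methods name Student's t-test and ANOVA, run as alternatives. Further alternatives were the groups compared alone, the replicate number as a block, other row choices, filters on dim genes, other scalings, trended robust eBayes, all rows, and leaving out each array. Centring on olfactory receptor genes, counting members above the guide level alone and the CAGAC search were added after seeing the data. The fit was tested on simulated data. Python 3.11.15 handled the promoter windows and, with matplotlib 3.10.9, the plots.

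Array values are given in full for members called in any test, and up to 4 genes a pathway list are named by their F test. Members, lists and tests were chosen with earlier results of these data known. Promoter windows are RefSeq's on another build than the arrays', and no coordinates of the arrays are given.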

Additional observations from a re-analysis of the deposited data

Results flagged for a closer look

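The effect of the transgene differed between dysferlin-deficient and dysferlin-intact muscle for 6 members, by the limma test of the difference itself. F66;Dysf-/- minus Dysf-/- exceeded F66 minus wt by 0.8752 for Sfrp2 (SE 0.1444, adjusted p = 0.000635), by 0.7839 for Sfrp1 (adjusted p = 0.002341), by 0.4173 for Fzd8 (adjusted p = 0.01607), by 0.4003 for Fzd3 (adjusted p = 0.04372) and by 0.2515 for Lrp5 (adjusted p = 0.02399), all on the log2 scale. The Fzd3 call was kept under 2 of 8 alternatives and 3 of 12 omissions of an array, the Fzd8 call ended when its rows were averaged, the Lrp5 call ended without 4 of 12 arrays, and testing all rows ended all 3. For Sfrp4 the same difference was -1.289 (adjusted p = 4.8e-05). Sfrp1, Sfrp2 and Sfrp4 are all decoys for Wnts, and their F66 arrays and F66;Dysf-/- arrays did not overlap. Macrophage and fibroblast genes stood higher in F66;Dysf-/- than in F66, with list means of 8.86 against 7.14 and of 8.92 against 8.23, and their part in these differences was not tested.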

How the results depend on the processing

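Of 749 called values recomputed under other settings 134 lost their call, as did 91 of 792 recomputed with an array left out, and 0 changed sign. Testing all rows gave 11 members called across the 6 groups in place of 26, 3 in F66 against wt, 8 in F66;Dysf-/- against Dysf-/-, 8 in F66;Dysf-/- against F66 and 3 for the difference of the F66 effect. Far more rows were tested there. Leaving out genes below the guide level gave 17 across the 6 groups, 12 in F66;Dysf-/- against F66 and 1 in ACVR2B/Fc-injected against uninjected Dysf-/-. Members above that level alone, a setting added after seeing the data, gave 14, 3 in F66 against wt and 12 in F66;Dysf-/- against F66. The methods' tests gave 3 in F66 against wt and 9 in F66;Dysf-/- against F66. Centring on the olfactory receptor genes, also added later, gave 11 in F66;Dysf-/- against F66, 10 of them shared with the 19. Its cause was not tested. In F66;Dysf-/- arrays these genes had medians of 3.81 to 3.84, against 3.91 to 4.10 in all other arrays. Of all genes called in F66;Dysf-/- against Dysf-/- the share that was higher was 45.2% as deposited, 70.3% after median centring and 83.2% after centring on the olfactory genes.

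With arrays left out in turn, counts ranged from 11 to 15 in F66;Dysf-/- against Dysf-/-, lowest without F66;Dysf-/- replicate 1, and from 0 to 2 in ACVR2B/Fc-injected against uninjected Dysf-/-, where 2 were called without injected replicate 1. A fit with a replicate block called 26 members across the 6 groups, 6 in F66 against wt, 17 in F66;Dysf-/- against Dysf-/-, 21 in F66;Dysf-/- against F66, 7 for the difference of the F66 effect and 0 in the rest. Same-numbered arrays correlated at -0.07 to 0.29 in their deviations from group means, and arrays of different number at -0.28 to 0.12. The highest values, 0.21 and 0.29, were those of replicates 1 and 2 of injected wt with the same replicates of wt. The labels do not say whether the numbers pair arrays, and the main fit did not pair them. Of the members, 19 had means below the guide level, where differences are compressed.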
